A study of Mus musculus with 48 samples.

Results

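Gene expression was compared between 14 medulloblastomas (MBs) with a transposon insert in *Nfia* (*Nfia*-insert tumours) and 8 MBs without an insert in any gene of the network of common insertion site (CIS) genes (non-network tumours). The tumours were chosen by the sample labels alone. These 22 tumours are part of a series of 48 arrays, with 1 array per animal, and all arose in mice given Sleeping Beauty (SB) mutagenesis. Every one of these mice was of strain CBA/J and genotype *Ptch*+/-;T2Onc+/-;SB11+/-. Loss of 1 copy of *Ptch*, the transposon T2Onc and the transposase SB11 were therefore shared by both groups. SB11 was expressed from the *Rosa26* locus, which is active in most tissues, so inserts were not restricted to the cells from which MBs arise. *Nfia*-insert tumours came from mice aged 7 to 24 weeks (median 17) and non-network tumours from mice aged 12 to 23 weeks (median 19), and mean age was 16.5 ± 4.59 and 17.9 ± 4.49 weeks (SD; two-sided exact permutation p = 0.537). A further 8 network tumours with inserts in other network genes but not in *Nfia* (same strain and genotype, 10 to 21 weeks) were left out of this comparison and used only as a second group to set the *Nfia*-insert tumours against. The labels state that an insert is present, not in what share of the cells it lies or whether an *Nfia*-insert tumour has inserts in other network genes as well.

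*Nfia* encodes nuclear factor I A, a transcription factor that binds DNA as a dimer at a palindrome of TTGGC half-sites. In the developing brain it promotes the formation of astrocytes, and with its relatives it takes part in the maturation of cerebellar granule neurons. Granule neuron precursors are the cells from which MBs of *Ptch*+/- mice arise, after loss of restraint on Sonic hedgehog signalling. *Igf2*, an imprinted growth factor gene, is required for efficient MB formation in these mice.

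For 25697 probes the authors deposited a signal on the log2 scale, on which a difference of 1 is a doubling. The study pairs 8 of these probes with gene names, having chosen them on the same SB tumours in a comparison of network with non-network tumours. Their differences given here are therefore descriptions and not independent evidence of a direction. The remaining 25689 probes have no name in the sources used here. The signals of *Nfia* itself, of the other CIS genes and of marker genes for neurons, granule neuron precursors, glia, vessels or immune cells other than *Aqp4* and *Lyz2* were thus not examined, and the labelled tissue was checked only by comparing whole profiles. In these bulk samples fewer cells of a type and less RNA per cell cannot be told apart.

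Tumour 421 of the *Nfia*-insert group stood apart. Its profile correlated at r = 0.993 across probes with the mean of 6 normal cerebella and at 0.887 with the mean of 6 tumours from *Ptch*+/- mice without transposition, the reverse of the order in the 13 other *Nfia*-insert tumours and in all 8 non-network tumours. The cerebella came from mice aged 6 to 7 weeks and were not matched in age to the tumours. The tumours without transposition (genotype *Ptch*+/-;T2Onc+/-) came from mice aged 10 to 28 weeks. GTML tumours, a model that the labels give as a strain of its own, came from mice aged 14 to 20 weeks. Each array was also given a position on an axis that runs between the average profile of 6 tumours of the GTML model (0) and that of the cerebella (1), and tumour 421 lay at 0.99. The other *Nfia*-insert tumours lay between 0.16 and 0.62 (median 0.24), with tumour 786 the highest of them, and the non-network tumours lay between 0.18 and 0.48 (median 0.20). Mean position was 0.31 ± 0.22 in *Nfia*-insert and 0.26 ± 0.11 in non-network tumours (SD; exact permutation p = 0.609), and 0.26 ± 0.11 in *Nfia*-insert tumours without 421 (p = 0.958). Differences between the groups are given with and without tumour 421.

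**Figure D1:**
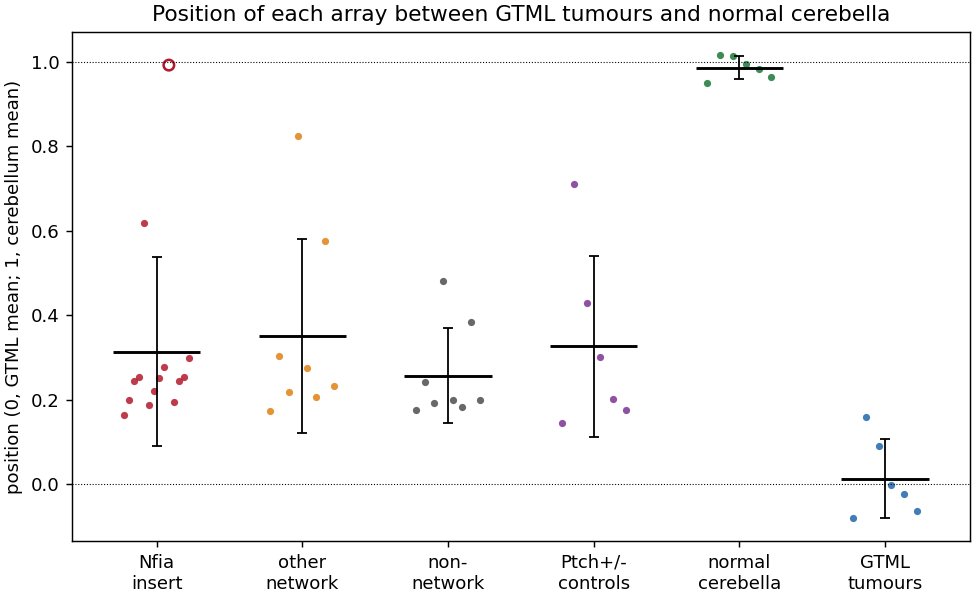
Position of each of the 48 arrays (y axis, no unit) on the axis between GTML tumours (0) and normal cerebella (1), by group, with bars for mean and SD. Tumour 421 (open circle, 0.99) lies among the normal cerebella, and the other *Nfia*-insert tumours (0.16 to 0.62) span a range like that of the non-network tumours (0.18 to 0.48).

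Across the whole array no probe separated *Nfia*-insert from non-network tumours. Of 25697 probes, 0 passed an adjusted p of 0.05 by limma (percent called 0), and the lowest adjusted p was 0.993. A Student t-test on the same values also called 0 after adjustment and 1176 without it. At an unadjusted p under 0.05, limma counted 1175 probes (4.57% of those tested), of which 564 were higher (2.19%) and 611 lower (2.38%) in *Nfia*-insert tumours. If no probe differed, 1285 would fall under this threshold on average, and the count can stray far from this average where probes vary together. Without tumour 421 the counts were 0 adjusted and 1245 unadjusted (4.84%), and the lowest adjusted p was 0.769. The means lay at least 2-fold apart for 4 probes (0.0156%), and for 0 probes did the signals of one group lie wholly outside those of the other.

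The intervals of these differences were narrow for most probes. The 95% confidence interval of the difference, taken probe by probe, lay wholly within 2-fold in either direction for 25561 of 25697 probes, and for 25633 without tumour 421. How far dim probes lay above background is not known. Of the 5293 probes with a mean of at least 7.5 over the 22 tumours, 5166 had an interval within 2-fold and 4693 had one within 1.5-fold. The 136 probes whose interval reached beyond 2-fold included all of the named genes described next except *Kank1*, and for those the range of differences within the interval was wide.

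**Figure D2:**
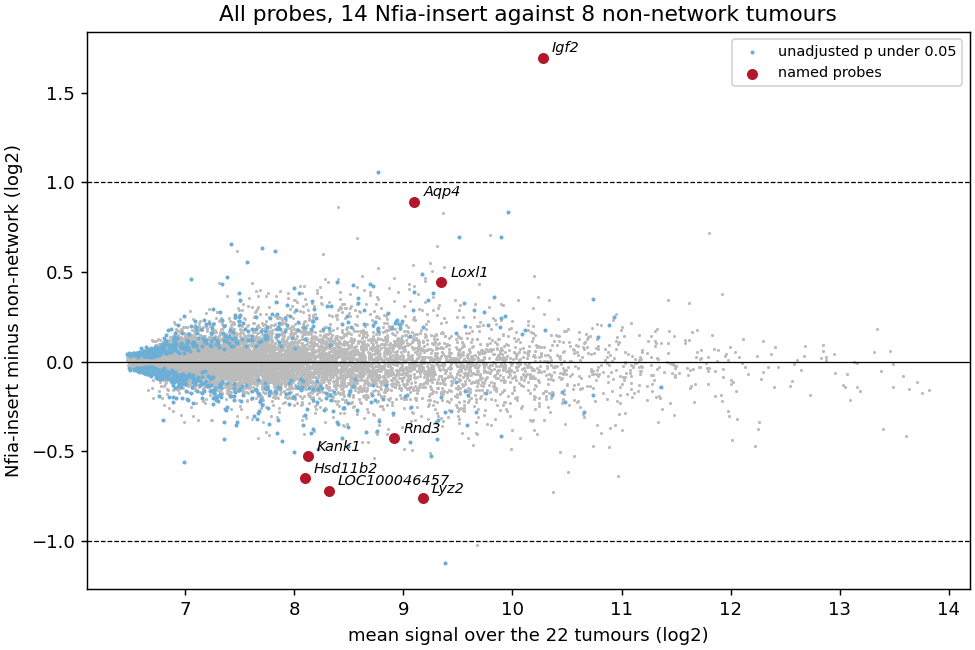
Difference between the means of 14 *Nfia*-insert and 8 non-network tumours (y axis, log2) against mean signal over the 22 tumours (x axis, log2) for all 25697 probes, with 2-fold differences dashed. *Igf2* lies farthest from 0 (1.70), and 4 probes lie beyond a dashed line, none of them past an adjusted p of 0.05.

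By correlation of whole profiles, *Nfia*-insert tumours also resembled non-network tumours about as much as each other. The median correlation across probes was 0.978 over the 91 pairs of *Nfia*-insert tumours, 0.975 over the 112 pairs of an *Nfia*-insert and a non-network tumour, and 0.972 over the 28 pairs of non-network tumours. Without tumour 421 the first 2 were 0.979 and 0.975. Such correlations tell groups apart only weakly. Even with the mean of the GTML tumours, the *Nfia*-insert tumours other than 421 correlated at 0.915 (tumour 786) to 0.942 (tumour 48). The closest pair among the 22 arrays, *Nfia*-insert tumours 280 and 849 (r = 0.989), had 1 probe at which they lay 2.11 apart (log2), so these were separate measurements. The SD of a probe was larger among *Nfia*-insert than among non-network tumours for 58.0% of probes, and for 48.9% once tumour 421 was left out.

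*Igf2* had the largest difference between means of any probe. Its signal ranged from 8.62 to 12.27 (median 11.07) in the 14 *Nfia*-insert tumours, against 7.81 to 12.12 (median 8.71) in the 8 non-network tumours. All but 1 of the 14 *Nfia*-insert tumours lay above the non-network median, 3 of them lay above every non-network tumour, and 3 of the 8 non-network tumours lay below every *Nfia*-insert tumour. The groups overlapped in between. Non-network tumour 260 (12.12) reached the level of the high *Nfia*-insert tumours. Non-network tumour 835 (11.05) lay below these high tumours, close to the median of all 14 *Nfia*-insert tumours (11.07). *Nfia*-insert tumours 116 (8.62) and 457 (8.91) lay among the low non-network tumours. The mean was 10.89 ± 1.30 in *Nfia*-insert and 9.20 ± 1.56 in non-network tumours (SD), a log2 difference of 1.70 (SE 0.60, 95% interval 0.46 to 2.93, 3.24-fold). The exact permutation p was 0.0149, and the adjusted p of 0.993 from limma was far from the threshold. Without tumour 421 (9.61) the difference was 1.79 (exact permutation p = 0.0128).

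The *Igf2* signals of *Nfia*-insert tumours were not spread evenly. Of the 14 tumours, 7 lay between 8.62 and 10.42 and 7 between 11.72 and 12.27, with no tumour in the 1.30 between. Among non-network tumours the widest gap lay lower, with 6 tumours at or below 9.05 and 2 at or above 11.05. The age and title number (the running number in a sample's title) of these animals showed no relation to *Igf2* that passed adjustment (24 relations of the named genes to age, title number and position, Benjamini-Hochberg). An *Nfia* insert was thus present both in tumours with high and in tumours with intermediate or low *Igf2* signal. *Igf2* was at 9.84 to 10.82 in the 6 normal cerebella, so an intermediate signal was not particular to tumours. In the 6 tumours from *Ptch*+/- mice without transposition it ranged from 8.01 to 11.94. In *Nfia*-insert tumours *Igf2* ranked 33rd of all probes by SD, or 10th without tumour 421, and in non-network tumours 9th.

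The promoters of *Igf2*, which had the largest difference, and of *Rnd3*, which had the largest difference of the named genes between *Nfia*-insert and other network tumours, are shown with the half-site of nuclear factor I. Windows of 250 bases before to 50 after the start of transcription (RefSeq, build GRCm38.p6) were at hand for 4 of the 8 named genes, with 4 windows for *Igf2* and 1 each for *Kank1*, *Lyz2* and *Rnd3*. TTGGC was searched on both strands, so that it also reads GCCAA. A half-site was found in 1 of these 7 windows, that of *Rnd3*, 132 bases before the start, and in 46.7% of all 32851 windows of this length. The full palindrome, with 2 half-sites facing each other across 5 bases of any kind, was in 0 of the 7 and in 0.0365% of all windows. A match is a description of these letters and was not tested as a binding site. Capitals mark the half-site. The windows are *Rnd3* (chr2:51149062-51149361, minus strand) and the *Igf2* window with the lowest coordinates (chr7:142657447-142657746, minus strand), which holds no half-site.
Rnd3: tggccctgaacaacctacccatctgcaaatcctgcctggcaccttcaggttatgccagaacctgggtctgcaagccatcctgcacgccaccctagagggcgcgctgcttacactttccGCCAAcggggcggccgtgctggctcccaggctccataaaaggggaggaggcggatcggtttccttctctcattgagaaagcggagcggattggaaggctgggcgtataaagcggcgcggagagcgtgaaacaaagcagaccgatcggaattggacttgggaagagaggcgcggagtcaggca
Igf2: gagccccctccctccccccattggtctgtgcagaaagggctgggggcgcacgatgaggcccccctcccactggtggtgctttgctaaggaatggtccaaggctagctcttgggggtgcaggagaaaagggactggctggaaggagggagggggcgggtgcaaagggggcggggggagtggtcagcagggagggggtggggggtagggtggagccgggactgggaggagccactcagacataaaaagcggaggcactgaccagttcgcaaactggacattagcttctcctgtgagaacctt

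**Figure D3:**
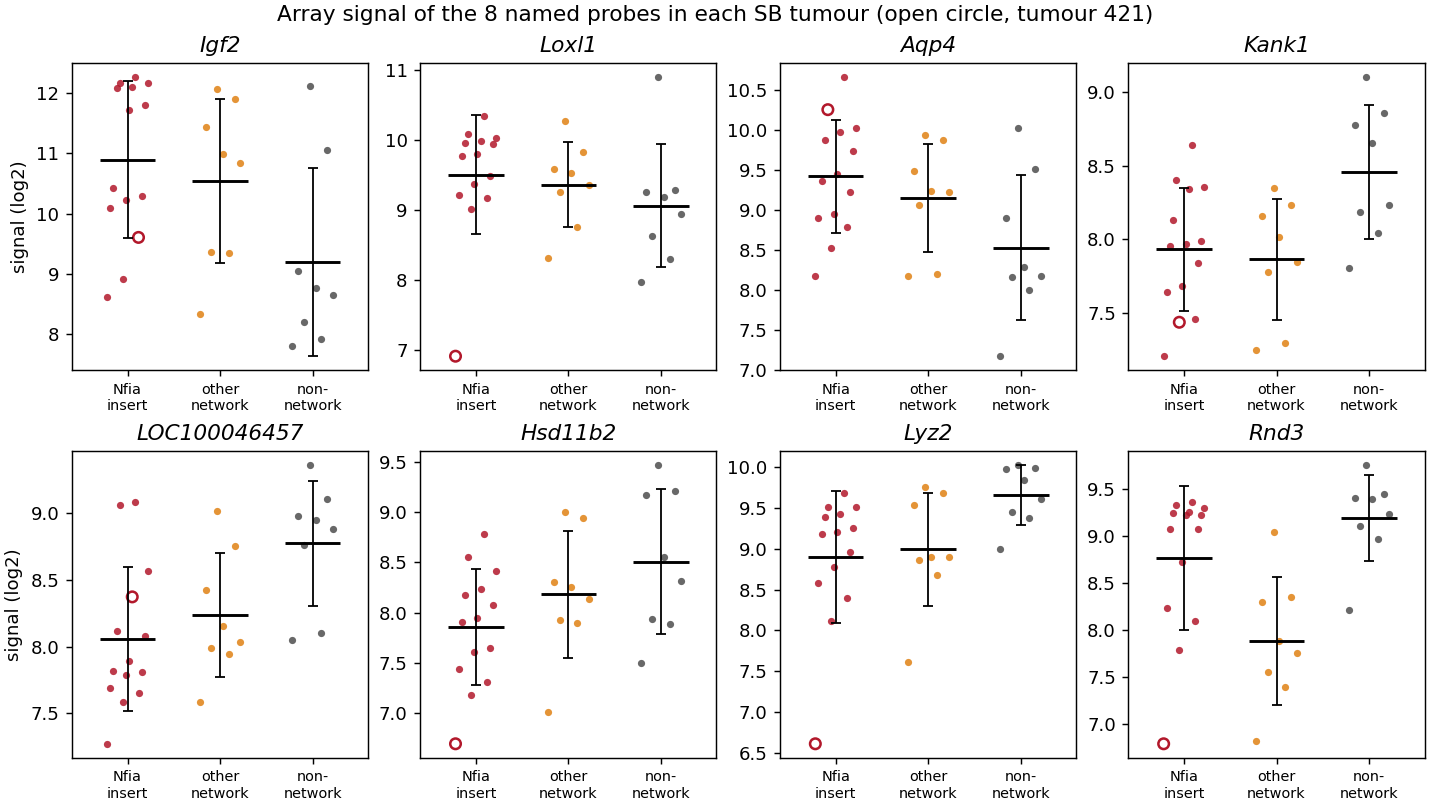
Signal (y axis, log2) of the 8 named probes in each *Nfia*-insert (14), other network (8) and non-network tumour (8), with bars for mean and SD and tumour 421 as an open circle. The *Nfia*-insert and non-network tumours overlap for each gene, and tumour 421 is the lowest of its group for *Loxl1*, *Hsd11b2*, *Lyz2* and *Rnd3*.

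*Loxl1* and *Aqp4* were the other named genes with higher means in *Nfia*-insert tumours. *Loxl1* encodes an enzyme that cross-links elastic fibres, and *Aqp4* the water channel of astrocytes. *Loxl1* ranged from 6.92 to 10.34 (median 9.79) in *Nfia*-insert and from 7.98 to 10.90 (median 9.07) in non-network tumours. Tumour 421 alone made up the low end of the *Nfia*-insert group, since the next lowest value was 9.02, and non-network tumour 835 alone made up the high end of its group, since the next highest was 9.29. With all tumours the log2 difference was 0.44 (SE 0.37; exact permutation p = 0.268), and it was 0.64 (SE 0.27, p = 0.0352) without 421, and without 835 it was 0.71 (SE 0.34). The adjusted p from limma was 0.993 with all tumours and 0.997 without 421. *Loxl1* in tumour 421 (6.92) lay within the range of the 6 cerebella (6.88 to 7.20).

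*Aqp4* ranged from 8.17 to 10.67 (median 9.41) in *Nfia*-insert and from 7.17 to 10.03 (median 8.23) in non-network tumours. All but 1 of the 14 *Nfia*-insert tumours lay above the non-network median, although the 2 highest non-network tumours, 833 (9.52) and 16 (10.03), lay in the upper part of the *Nfia*-insert range. Those 2 tumours were also the nearest to cerebellum in their group, at positions 0.48 and 0.38, and *Aqp4* was at 10.28 to 11.25 in the cerebella. Means differed by 0.89 on the log2 scale (SE 0.34; exact permutation p = 0.0207; adjusted p from limma 0.993), 0.83 without tumour 421 (p = 0.0312) and 0.78 with position as a covariate. Within the 14 *Nfia*-insert tumours *Aqp4* followed position by rank (Spearman's rank correlation 0.80, permutation p = 9.0e-04, adjusted over 24 relations 0.0216) but not by Pearson's r (0.44, permutation p = 0.109, adjusted 0.373). Leaving out tumours 421 and 786, the farthest from the median position, gave r = 0.85, and without 421 alone the rank correlation was 0.76 (adjusted p = 0.0914). Position was computed over all probes, *Aqp4* among them, and *Aqp4* itself differed between the ends of the axis (mean 10.75 in cerebella, 7.96 in GTML tumours). Position is thus not fully independent of *Aqp4*.

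*Hsd11b2*, *Kank1* and *Lyz2* had lower means in *Nfia*-insert tumours. *Hsd11b2* encodes the enzyme that inactivates glucocorticoids. It ranged from 6.70 to 8.78 (median 7.93) in *Nfia*-insert and from 7.5 to 9.47 (median 8.44) in non-network tumours, and 2 of the 14 *Nfia*-insert tumours lay above the non-network median. Means differed by -0.65 on the log2 scale (SE 0.27; exact permutation p = 0.0324) and -0.56 without tumour 421 (SE 0.25, p = 0.0503), with adjusted p of 0.993 and 0.997 from limma. The lowest value, 6.70, was again that of tumour 421 and lay within the range of the cerebella (6.56 to 6.71). The 3 highest non-network tumours, 731 (9.17), 286 (9.21) and 366 (9.47), exceeded every *Nfia*-insert tumour.

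*Kank1*, which encodes a regulator of the actin cytoskeleton, ranged from 7.20 to 8.64 (median 7.96) in *Nfia*-insert and from 7.80 to 9.10 (median 8.45) in non-network tumours. A single *Nfia*-insert tumour, 457 (8.64), lay above the non-network median, and 5 of the 14 lay below the lowest non-network tumour. *Nfia*-insert minus non-network tumours gave a log2 difference of -0.53 (SE 0.18; exact permutation p = 0.0137; adjusted p from limma 0.993) and -0.49 without tumour 421 (p = 0.0209). Within the *Nfia*-insert tumours *Kank1* and *Hsd11b2* varied together (Pearson's r = 0.78, permutation p = 0.0011, adjusted over 28 pairs of named genes 0.0286; Spearman's rank correlation 0.79, adjusted p = 0.0328). Leaving out the 2 tumours farthest from the median *Kank1* signal gave r = 0.67. Without tumour 421 r was 0.76 and the rank correlation 0.74, with adjusted p of 0.0729 and 0.0953, so that this relation passed adjustment only with 421 included.

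*Lyz2* encodes the lysozyme of macrophages and other myeloid cells. It ranged from 6.61 to 9.69 (median 9.19) in *Nfia*-insert and from 9.0 to 10.03 (median 9.73) in non-network tumours. All of the 14 *Nfia*-insert tumours lay below the non-network median, with tumour 68 (9.69) the nearest to it, and 6 of them lay below every non-network tumour. Tumour 421 (6.61) lay below even the cerebella (6.70 to 6.89), and the next lowest value, that of tumour 786, was 8.12. The log2 difference was -0.76 (SE 0.29; exact permutation p = 0.00388), and it was -0.58 (SE 0.19, p = 0.00609) without tumour 421. The adjusted p from limma was 0.993 and 0.997. Other markers of myeloid cells were not examined, since their probes have no name here.

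LOC100046457, a locus for which no function is given here, was the named probe with the smallest p by limma, and 62 probes of the array had a smaller one. Its signal ranged from 7.27 to 9.09 (median 7.85) in *Nfia*-insert and from 8.05 to 9.37 (median 8.91) in non-network tumours. *Nfia*-insert tumours lay below every non-network tumour in 8 of 14 cases, and 2 of them, 457 (9.06) and 540 (9.09), lay above the non-network median. Its log2 difference was -0.72 (SE 0.22; exact permutation p = 0.00689; adjusted p from limma 0.993), and it was -0.74 without tumour 421 (p = 0.00688). Of the 28 pairs of named genes across the *Nfia*-insert tumours, that of *Igf2* and LOC100046457 passed adjustment by both measures besides *Kank1* and *Hsd11b2*, with high *Igf2* beside low LOC100046457, and it did not pass without tumour 421 (adjusted p = 0.0729 and 0.0953). Because *Igf2* fell into 2 ranges, a coefficient over all 14 tumours is not given. The ranges were cut at the widest gap in these same *Igf2* signals, which narrows *Igf2* within each. With 7 tumours in each range, the coefficients below cannot decide whether the relation holds. Within the 7 tumours of the lower range Pearson's r was -0.49 (exact permutation p = 0.250, Spearman's rank correlation -0.39, p = 0.396), and within the 7 of the upper range it was -0.51 (exact permutation p = 0.255, rank correlation -0.64, p = 0.139).

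*Rnd3* encodes a protein that opposes the assembly of actin stress fibres. In *Nfia*-insert tumours it ranged from 6.79 to 9.35 (median 9.15), against 8.21 to 9.76 (median 9.31) in non-network tumours. Of the 14 *Nfia*-insert tumours, 9 lay between 9.07 and 9.35, inside the non-network range, and 421 (6.79), 756 (7.79) and 849 (8.09) lay below it. The log2 difference was -0.43 (SE 0.29; exact permutation p = 0.151) with all tumours and -0.28 (SE 0.22, p = 0.237) without 421, and the 95% intervals of -1.03 to 0.17 and -0.73 to 0.18 both included 0. *Rnd3* in tumour 421 lay within the range of the cerebella (6.69 to 6.91).

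**Figure D4:**
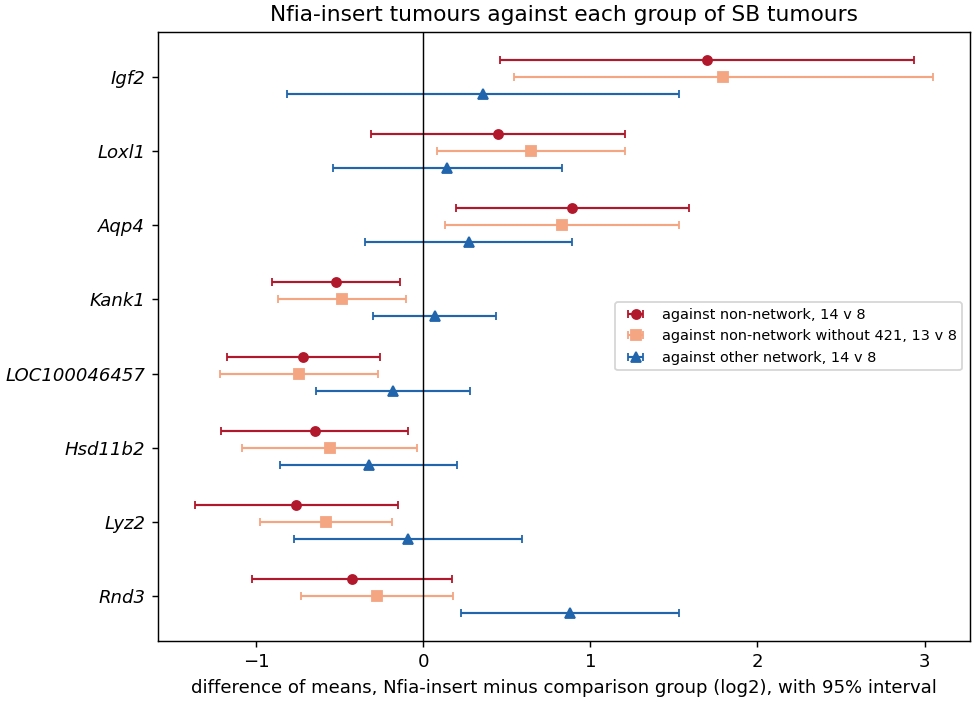
Difference between the mean of the *Nfia*-insert tumours and that of a second group of SB tumours (x axis, log2, Nfia-insert minus the second group) with 95% confidence intervals from limma for the 8 named genes. Against non-network tumours *Igf2* differed by 1.70 with all 14 tumours and 1.79 without 421. Against the other network tumours the intervals of 7 genes include 0, and *Rnd3* differed by 0.88.

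Of the 8 named probes, 3 had higher and 5 had lower means in *Nfia*-insert tumours, and 6 had an exact permutation p under 0.05. The same 6 had an unadjusted p under 0.05 by limma, as did 4.57% of all probes. The study's choice of these probes on the same tumours fixes this count in large part, and nothing further is read from it. The median size of their log2 differences was 0.68, against 0.0212 over all 25697 probes. The study listed these probes for their large fold changes, so this contrast also follows in large part from that choice. All 8 are among the 5293 probes with a mean of at least 7.5. Among non-network tumours the median SD was 0.209 for those brighter probes and 0.0575 over all probes. The contrast is thus in part one of brightness, and nothing is read from it. None of the 8 passed an adjusted p of 0.05 (percent called 0).

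Probes without a name included differences of similar size. Those described are the 2 largest in each direction at an unadjusted p under 0.05 by limma in this same comparison. Their sizes and p-values follow in large part from that choice and are descriptions, not independent evidence. ILMN_2944610 ranged from 6.57 to 10.43 (median 9.13) in *Nfia*-insert and from 6.95 to 9.56 (median 7.96) in non-network tumours, and 4 *Nfia*-insert tumours exceeded every non-network tumour. Its log2 difference was 1.06 (SE 0.43; exact permutation p = 0.0313) with all tumours and 1.26 (SE 0.36, p = 0.00465) without tumour 421, whose value of 6.57 was the lowest. ILMN_2922321 ranged from 8.94 to 11.28 (median 10.41) in *Nfia*-insert and from 7.46 to 11.01 (median 9.19) in non-network tumours (log2 difference 0.83, SE 0.39; exact permutation p = 0.0616). Without tumour 421, one of the 2 lowest of its group at 8.94, this difference was 0.93 (SE 0.38, exact permutation p = 0.0362). ILMN_2659960 ranged from 7.89 to 11.01 (median 8.56) in *Nfia*-insert and from 9.20 to 10.91 (median 10.15) in non-network tumours, a log2 difference of -1.12 (SE 0.39; exact permutation p = 0.0140), and -1.04 without tumour 421 (p = 0.0214). Its *Nfia*-insert tumours 116 (10.95) and 457 (11.01) exceeded the highest non-network tumour, while 9 lay below the lowest. ILMN_2727472 was at 6.60 to 6.98 in 13 *Nfia*-insert tumours and at 7.55 in tumour 146, against 6.63 to 6.68 in 4 and 7.45 to 8.53 in the other 4 non-network tumours. The log2 difference was -0.56 (SE 0.22; exact permutation p = 0.0338), and -0.55 without tumour 421 (p = 0.0403). The array medians were 6.73 to 6.74, and this probe was at 6.63 to 6.80 in the normal cerebella. Its lower signals may therefore lie at background, and its difference rests on the 4 non-network tumours with higher signals. The adjusted p of all 4 probes was 0.993 by limma, and 0.997 without tumour 421.

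To ask what distinguished an *Nfia* insert from inserts in other network genes, the 14 *Nfia*-insert tumours were set against the 8 other network tumours. No probe separated these groups. By limma 0 of 25697 probes passed an adjusted p of 0.05 (percent called 0, lowest adjusted p 1.00), 734 had an unadjusted p under 0.05 (2.86%), and 0 differed at least 2-fold. Without tumour 421 these counts were 0, 1018 (3.96%) and 6 (0.0233%). One of the other network tumours, 386, was nearest to cerebellum as well, at position 0.83. It stayed in the counts without 421, so these left out a cerebellum-like array from 1 group only. No fit left out both 421 and 386.

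*Igf2* averaged 10.89 ± 1.30 in *Nfia*-insert and 10.54 ± 1.36 in other network tumours (SD), where it ranged from 8.34 to 12.07. The log2 difference was 0.36 (SE 0.57, exact permutation p = 0.539) with a 95% interval of -0.82 to 1.53, which includes both no difference and a 2-fold one. Without tumour 421 it was 0.46 (exact permutation p = 0.443), and leaving out a single other network tumour gave 0.0449 (without 793) to 0.58 (without 386). By real-time PCR on the SB tumours with RNA at hand, the study reports higher *Igf2* in *Nfia*-insert than in other network tumours. Those PCR values were not examined here. For *Aqp4*, *Loxl1*, *Kank1*, *Lyz2*, *Hsd11b2* and LOC100046457 the log2 differences lay between -0.33 and 0.27, each with an interval that included 0, and without tumour 421 they lay between -0.24 and 0.34.

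*Rnd3* had the largest difference of the named genes in this comparison. Its signal ranged from 6.79 to 9.35 (median 9.15) in *Nfia*-insert tumours, against 6.82 to 9.04 (median 7.82) in other network tumours. The mean was 8.76 ± 0.76 in *Nfia*-insert and 7.88 ± 0.68 in other network tumours (log2 difference 0.88, SE 0.31; exact permutation p = 0.0180). Without tumour 421 the difference was 1.03 (SE 0.25, exact permutation p = 0.00211). By limma its p was the 6th smallest of all probes without 421, with an adjusted p of 0.946, and the 119th smallest with all tumours. With position as a covariate the difference was 0.78. Without other network tumour 386, the lowest of its group at 6.82, the difference was 0.73 (SE 0.32, unadjusted p by limma 0.0319, adjusted p 1.00). Over all tumours the adjusted p was 1.00, so *Rnd3* did not pass the threshold either way. The mean of the *Nfia*-insert tumours (8.76) lay between those of the other network (7.88) and the non-network tumours (9.19).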

How the data were processed

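The labels gave each sample's group, animal number and age. The authors hybridised biotin-labelled RNA to Illumina Mouse8 Reference arrays and deposited log2 signals. RMA is named (no version) in the submitters' processing notes, and array medians were 6.73 to 6.74. How background was corrected or detection called was not given in the sources used here. Arrays carry no read depth, and the number of animals limits the precision. All 25697 probes were fitted on the deposited log2 values with limma 3.58.1 in R 4.3.3, using the arrays of the groups compared, with no covariate and Benjamini-Hochberg adjustment (threshold 0.05). Single probes had exact permutation tests, two-sided, over all splits, doubling the smaller tail (NumPy 2.4.6), and correlations by 100000 permutations. The code was tested on simulated data. Named genes are the 8 probes that the study pairs with symbols and, of the unnamed probes under an unadjusted p of 0.05, the 2 largest differences in each direction. Gene and marker lists were not run, since the other probes have no name here. The probes, lists and comparisons were chosen with earlier results of these data known. Alternatives were a filter on dim probes, other normalizations, larger fits, a Student t-test, array weights, 3 covariates and leaving out each tumour. All value columns were mapped to samples (0 left over).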

Additional observations from a re-analysis of the deposited data

Results flagged for a closer look

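In the groups of 8 tumours, 26 sets of values were examined for a tumour lying far from the rest of its group by Dixon's criterion, of which chance would flag about 1 in 20, and 2 were flagged. *Loxl1* was at 10.90 in non-network tumour 835, where the next highest of the 8 was 9.29. Probe ILMN_2727472 was at 7.98 in other network tumour 730, where the next highest was 7.12.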

How the results depend on the processing

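The comparison with non-network tumours gave 0 probes under an adjusted p of 0.05 in each of 32 alternative fits (lowest adjusted p 0.564, without non-network tumour 833), and that with other network tumours gave 0 in each of 26 (lowest 0.747). The number under an unadjusted p of 0.05 was 203 against non-network and 35 against other network tumours when only the 5293 brighter probes were tested, which are fewer probes by construction. Leaving out 1 tumour at a time gave 1063 to 1359 such probes against non-network tumours. Against other network tumours it gave 678 to 836, except without tumour 421, where it gave 1018. The remaining alternatives gave 1085 to 1462 and 728 to 977.

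Against non-network tumours the differences of the named probes kept their sign in all 383 values from these fits. *Igf2* ranged from 1.5 (without non-network tumour 366) to 2.11 (without 260). An unadjusted p under 0.05 by limma was reached by *Loxl1* only without tumour 421 (0.0266), without 835 (0.0482) or with position as a covariate (0.0189), and was lost by *Hsd11b2* without non-network tumour 286, 366 or 731 (0.0604 to 0.0707). ILMN_2944610 lost it without non-network tumour 16, 286 or 366 (0.0506 to 0.0578), ILMN_2727472 without 260 or 835 (0.0507 and 0.0560) and ILMN_2922321 in 16 of 32 alternatives.

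Against other network tumours 8 of 311 values changed sign, all close to 0. These were *Lyz2* without tumour 421 (0.0845) and *Kank1* with title number as a covariate (-0.0335), and, on leaving out single other network tumours, *Lyz2* (range -0.289 to 0.0178), *Kank1* (-0.0210 to 0.136), *Loxl1* (-0.00606 to 0.273) and ILMN_2727472 (-0.180 to 0.0319). No paired analysis was possible because the animal numbers in the titles are not shared between groups. The cause of these shifts was not tested. Signals of probes near the array median may lie at background, which detection calls would show.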
